A study of Saccharina japonica with 2 samples.

Results

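The unigenes described here are homologues of 3 groups of clock genes of land plants, LHY/CCA1, ELF3 and WNK1, in the transcriptome of the kelp *Saccharina japonica*. They were taken from the study's annotation of circadian rhythm of plants as the unigenes listed under LHY, CCA1, CO, ELF3 or WNK1 and under no ZTL, FKF1, LKP2, CK2, APR or TOC1 homologue. This gave 8 of the 44 different unigenes of that annotation, out of 70288 unigenes with a read. There were 3 for LHY/CCA1, each listed under both names, 2 for ELF3 and 3 for WNK1. The only unigene listed under CO also stands under APR 7, so no CO unigene was left among the 8, and its values are given apart from theirs.

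The samples were vegetative tissue of sporophytes exposed to blue light (BL) for 2 h or kept in darkness for 2 h, in both cases after 4 h of culture in darkness and immersed in sterilized seawater. The labels call the material mature thalli, whereas the methods of the study describe juvenile sporophytes from cultivation rafts. Several individuals were pooled per treatment, and each pool gave 1 library of polyadenylated RNA. With 1 library per treatment the variation between pools could not be measured, so every comparison is between 2 libraries and not between treatments. Time in BL and time of sampling are likewise represented by 1 point each.

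LHY (LATE ELONGATED HYPOCOTYL) and CCA1 (CIRCADIAN CLOCK ASSOCIATED 1) are closely related Myb-like transcription factors of *Arabidopsis thaliana*. Their transcripts peak around dawn and their proteins repress evening genes of the clock such as TOC1. ELF3 (EARLY FLOWERING 3) is a scaffold of the *Arabidopsis* evening complex and limits the input of light to the clock. WNK1 belongs to the WNK family of serine/threonine kinases, and in *Arabidopsis* it can phosphorylate the pseudo-response regulator APRR3. CO (CONSTANS) is a zinc finger regulator that promotes flowering in response to day length in *Arabidopsis*. These roles are known from flowering plants, and the kelp unigenes carry the names by sequence similarity only.

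The BL library held 11410538 uniquely aligned reads on 69362 unigenes and the dark library 10905306 on 61927. Unigenes annotated as enzymes typical of brown algae were present in both libraries. The 6 mannuronan C-5-epimerase unigenes among the 1998 annotated entries used here, which code for enzymes of alginate synthesis, had at least 30 BL reads and 29 dark reads each. The 3 bromoperoxidase unigenes had at least 1438 BL reads and 493 dark reads each. The median log2 ratio of BL to darkness over all unigenes with a read was 0.67, with a limit of 3 reads where a library had none. Over the 34252 unigenes with reads in both libraries and at least 50 in all, the median was 0.07. TMM factors shifted every log2 ratio by -0.29 and median-of-ratios size factors by -0.42.

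All 8 unigenes had a larger share of the reads in the BL library, as had 43800 of all 70288 unigenes with a read. Together the 8 held 678 BL reads and 223 dark reads, or 59.4 of every 1000000 reads in BL and 20.4 in darkness. Their summed reads differed by a log2 ratio of 1.54 (exact 95% interval 1.32 to 1.76). Scaled by TMM this ratio was 1.25, by median-of-ratios size factors it was 1.12, and it was 0.22 once the trend of log2 ratios with GC content was removed. They made up 5.33% of the reads of the plant clock unigenes in BL and 3.05% in darkness. Levels are given as RPKM, the reads of a unigene per kilobase of its length and per 1000000 uniquely aligned reads of the library. Intervals are exact at the 95% level and cover counting error only. Because whole tissue was sequenced, fewer cells with a transcript and less of it per cell cannot be told apart.

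The reads of each unigene were compared by the Audic-Claverie test, in which the count of the BL library is judged against that of the dark library by counting error alone. Unigenes with P no higher than 0.05, FDR no higher than 0.001 and a log2 ratio of 1 or more in size were counted as upregulated or downregulated. Upregulated were 4 of the 8, namely 2 of 3 for LHY/CCA1, 1 of 2 for ELF3 and 1 of 3 for WNK1, and none was downregulated. Of all 70288 unigenes tested, 25.0% were upregulated and 11.6% downregulated. Among the 24857 unigenes with a GC content in the range of the 8, a comparison chosen after the values had been seen, 43.8% were upregulated and 2.86% downregulated. The 4 of 8 are thus close to the share among unigenes in that range. A log2 ratio of at least 1 alone was reached by 6 of the 8, the unigene without a dark read included, and by 45.7% of all unigenes. The median log2 ratio of the 8 was 2.03, with Unigene51912 set to its limit of 3 dark reads, against 0.67 over all unigenes treated alike.

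**Figure D1:**
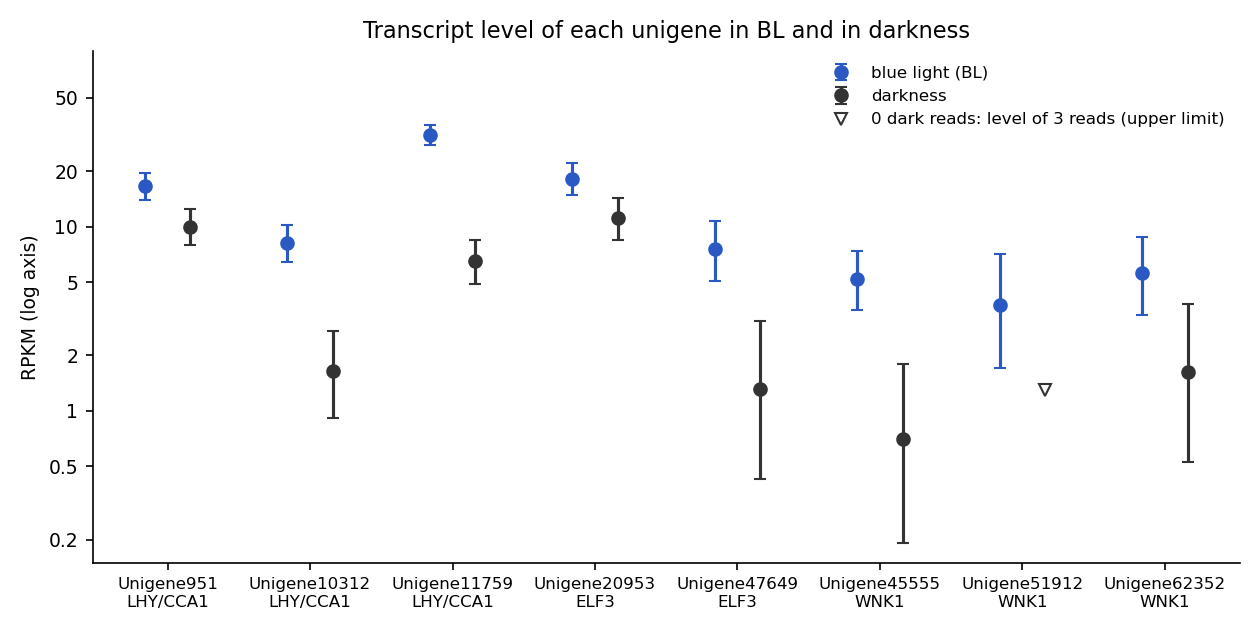
RPKM (log axis) of the 8 unigenes in BL (blue, left of each pair) and in darkness (black), with exact 95% Poisson intervals of the reads of 1 library each. The open triangle is the level that 3 reads would give for Unigene51912, which had no dark read. Unigene11759 was the highest in BL at 31.4 RPKM, and Unigene20953 the highest in darkness at 11.1 RPKM.

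The LHY/CCA1 unigenes were Unigene951, Unigene10312 and Unigene11759, of 734, 838 and 747 bp. All 3 matched both *Arabidopsis* genes, so none could be assigned to LHY or to CCA1 alone. The study annotated Unigene10312 also as a myb family transcription factor and Unigene11759 as a transcription factor. Unigene951 was not among the 1998 annotated entries used here, which are a part of the study's annotation. Whether the study annotated it in a like way was therefore not seen. Together they held 485 BL reads and 148 dark reads, a log2 ratio of 1.65 (interval 1.38 to 1.92), or 3.13-fold. Once the GC trend was removed their summed log2 ratio was 0.36, and without Unigene11759 it was then -0.49.

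Unigene11759 had 268 reads in BL, or 31.4 RPKM (interval 27.8 to 35.4), against 53 reads in darkness, or 6.51 RPKM (interval 4.87 to 8.51). It was upregulated, at a log2 ratio of 2.27 (interval 1.84 to 2.73), with an Audic-Claverie FDR of 1.54e-32. Of the 8 it was the most abundant in BL, and its RPKM there was above that of 87.2% of all unigenes, against 61.7% in darkness.

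Unigene10312 had 78 reads in BL, or 8.16 RPKM (interval 6.45 to 10.2), against 15 reads in darkness, or 1.64 RPKM (interval 0.919 to 2.71). It was upregulated as well, at a log2 ratio of 2.31 (interval 1.50 to 3.22), with an Audic-Claverie FDR of 3.79e-10. Its ratio lay within counting error of that of Unigene11759, at a ratio of the 2 ratios of 1.03 (exact interval 0.54 to 2.07). Its dark reads covered 559 bp of its 838 bp, and its BL reads 812 bp.

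Unigene951 did not follow the other LHY/CCA1 unigenes. It had 139 reads in BL, or 16.6 RPKM (interval 14.0 to 19.6), against 80 reads in darkness, or 9.99 RPKM (interval 7.92 to 12.4). Its log2 ratio of 0.73 (interval 0.32 to 1.15) was below the fold threshold, at an Audic-Claverie FDR of 0.000714. The BL-to-dark ratio of Unigene10312 was 2.98 times that of Unigene951 (interval 1.57 to 5.97), and that of Unigene11759 was 2.90 times it (interval 1.91 to 4.45). These comparisons within the same libraries do not depend on how the libraries are scaled to each other. Unigene951 thus made up 28.7% of the LHY/CCA1 reads in BL (interval 24.7% to 32.9%) and 54.1% in darkness (interval 45.7% to 62.3%). Unigene11759 made up 55.3% in BL (interval 50.7% to 59.7%) and 35.8% in darkness (interval 28.1% to 44.1%). The most abundant LHY/CCA1 unigene was therefore a different one in the 2 libraries.

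The length of Unigene951 covered by reads was slightly smaller in BL. Its 139 BL reads covered 707 bp and its 80 dark reads 726 bp, so that more reads covered less of it. In BL 42.4% of the 283 unigenes with like reads and length were covered less than it, and in darkness 82.6% of 258. It was the only one of the 8 with less of its length covered in BL. In darkness Unigene47649 and Unigene62352 departed more from unigenes with like reads and length, of which 94.5% of 841 and 93.9% of 1497 were covered less.

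The ELF3 unigenes were Unigene20953 of 505 bp and Unigene47649 of 348 bp. Their 135 BL reads and 66 dark reads gave a log2 ratio of 0.97 (interval 0.53 to 1.41). With the GC trend removed, the summed ratio turned to -0.79. The more abundant of the pair had the smaller ratio.

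Unigene20953 had 105 reads in BL, or 18.2 RPKM (interval 14.9 to 22.1), against 61 reads in darkness, or 11.1 RPKM (interval 8.47 to 14.2). Its log2 ratio was 0.72 (interval 0.25 to 1.20) and its Audic-Claverie FDR 0.0043, past neither the fold nor the FDR threshold. It was the most abundant of the 8 in darkness, above 72.1% of all unigenes.

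Unigene47649 had 30 reads in BL, or 7.56 RPKM (interval 5.10 to 10.8), against 5 reads in darkness, or 1.32 RPKM (interval 0.428 to 3.07). It was upregulated, at a log2 ratio of 2.52 (interval 1.14 to 4.24), with an Audic-Claverie FDR of 0.000105. The 5 dark reads covered 305 bp, and the 30 BL reads covered 310 bp. With median-of-ratios size factors its FDR was 0.00211, so the call was lost, at a log2 ratio of 2.10. Its BL-to-dark ratio was 3.47 times that of Unigene20953 (interval 1.24 to 12.1). Unigene47649 made up 22.2% of the ELF3 reads in BL (interval 15.5% to 30.2%) and 7.58% in darkness (interval 2.51% to 16.8%).

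The WNK1 unigenes were the least abundant group, with 58 BL reads and 9 dark reads in all, and had the largest summed log2 ratio, 2.62 (interval 1.60 to 3.82). Unigene45555 of 522 bp matched the *Arabidopsis* gene, whereas Unigene51912 of 211 bp and Unigene62352 of 283 bp matched 1 gene of rice. Whether Unigene51912 and Unigene62352 are pieces of 1 transcript was not analysed here. The same holds for the ELF3 unigenes and for the LHY/CCA1 unigenes, which also matched the same genes within their group.

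Unigene45555 had 31 reads in BL, or 5.20 RPKM (interval 3.54 to 7.39), against 4 reads in darkness, or 0.703 RPKM (interval 0.191 to 1.80). It was upregulated, with the highest log2 ratio of the 7 unigenes with reads in both libraries, 2.89 (interval 1.39 to 4.85), and an Audic-Claverie FDR of 1.88e-05. Its dark reads covered 245 bp and its BL reads 512 bp.

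Unigene62352 had 18 reads in BL, or 5.57 RPKM (interval 3.30 to 8.81), against 5 reads in darkness, or 1.62 RPKM (interval 0.526 to 3.78). Its log2 ratio was 1.78 (interval 0.30 to 3.57), with an Audic-Claverie FDR of 0.0237, so it did not pass the thresholds. Unigene51912 had 9 reads in BL, or 3.74 RPKM (interval 1.71 to 7.10), and 0 in darkness. The limit of 3 dark reads would be 1.30 RPKM, and the exact upper bound of its dark level was 1.60 RPKM. With 3 dark reads it would be 2.87-fold higher in BL, and the exact lower bound of its ratio was 1.89-fold. Its Audic-Claverie FDR of 0.0087 did not pass. None of the 3 pairs of WNK1 unigenes differed in ratio beyond counting error.

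**Figure D2:**
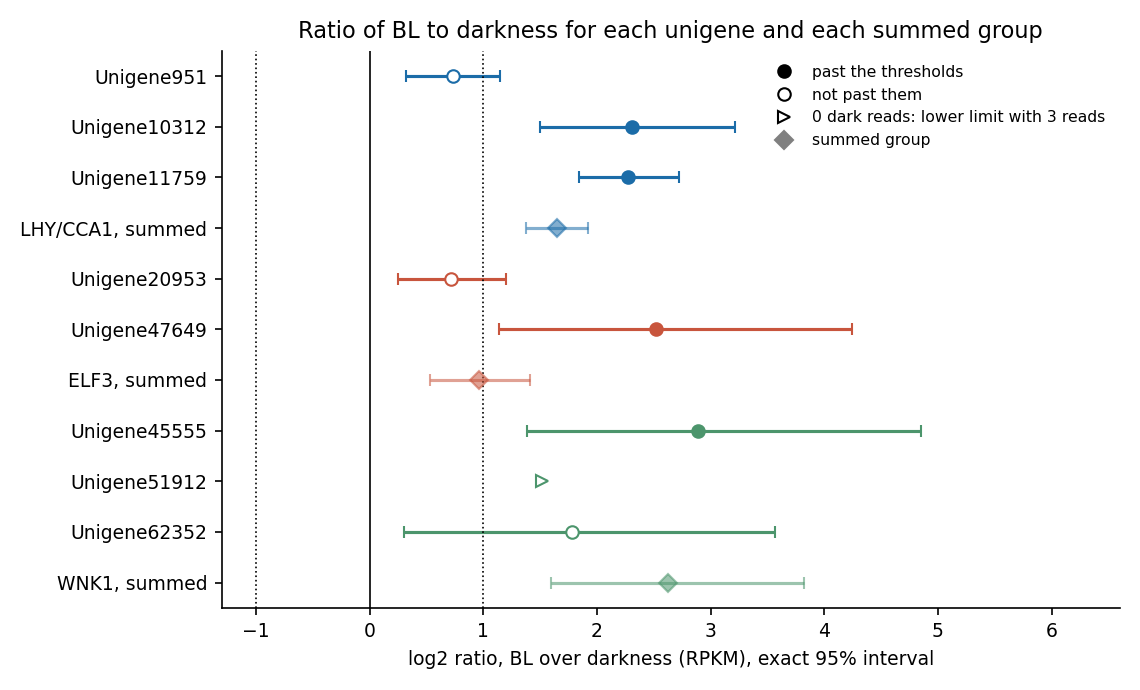
Log2 ratio of BL to darkness (RPKM) of each unigene (circles) and of the summed reads of each group (diamonds), with exact 95% intervals. Dotted lines mark a log2 ratio of 1 in either direction, and the open triangle is Unigene51912 set to 3 dark reads. The triangle has no interval, and the exact lower bound of Unigene51912 was 0.92. The 4 filled circles were upregulated, and Unigene951 and Unigene20953 lie lowest at 0.73 and 0.72.

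In the order of log2 ratios, none of the 7 pairs of neighbours among the 8 unigenes differed beyond counting error. Neighbours in such an order are the closest pairs, so this does not show that the 8 were alike. The summed reads of the groups were compared in the same way. The BL-to-dark ratio of WNK1 was 3.14 times that of ELF3 (interval 1.43 to 7.65), and that of LHY/CCA1 was 1.60 times that of ELF3 (interval 1.11 to 2.30). WNK1 and LHY/CCA1 lay within counting error of each other, at 1.96 times (interval 0.94 to 4.62). Without Unigene11759 the summed log2 ratio of LHY/CCA1 was 1.13, against 0.97 for ELF3.

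The order of levels differed between the libraries. In BL, Unigene11759 was 1.73 times as abundant per length as Unigene20953 (interval 1.37 to 2.18), which came next. Unigene20953 and Unigene951 did not differ beyond counting error, and Unigene951 was 2.03 times as abundant as Unigene10312 (interval 1.53 to 2.72). In darkness, Unigene20953 and Unigene951 stood first without a difference beyond counting error, and Unigene951 was 1.54 times as abundant as Unigene11759 (interval 1.07 to 2.22). Unigene11759 was 3.96 times as abundant as Unigene10312 there (interval 2.20 to 7.57). Below Unigene10312 no neighbours differed beyond counting error in either library, ELF3 Unigene47649 and all WNK1 unigenes included.

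The log2 ratio moved with the GC content of the unigenes across the transcriptome. Over the 34252 unigenes with reads in both libraries and at least 50 in all, Spearman's correlation was 0.53, a description across unigenes of the same 2 libraries. All 8 unigenes lay above the median GC content of 52.3%, at 54.98% to 66.14%. Among unigenes within 1 percentage point of its own GC content, Unigene45555 (57.09% GC) lay above 87.5% of log2 ratios, Unigene47649 (58.62%) above 75.2%, Unigene11759 (57.83%) above 74.1%, Unigene10312 (59.07%) above 68.7% and Unigene62352 (57.95%) above 64.1%. These 5 were above the median of such unigenes. Unigene951 (60.49%) was above 25.3% and Unigene20953 (66.14%) above 19.8%, where the medians of unigenes of like GC content were 1.77 and 1.94.

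**Figure D3:**
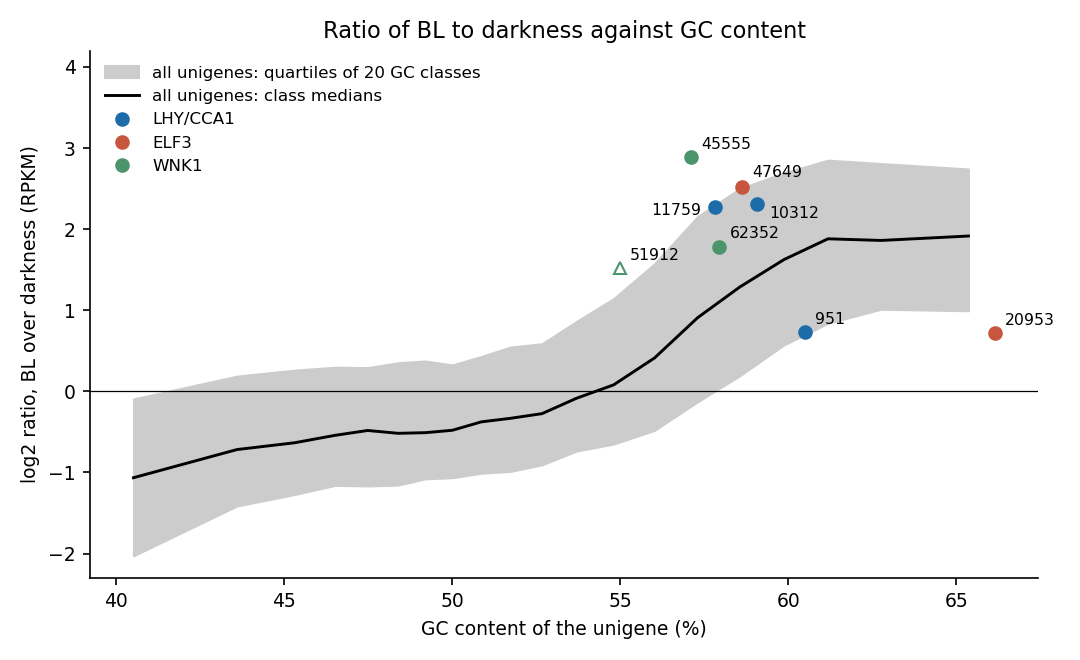
Log2 ratio of BL to darkness against GC content. The line and band give the median and quartiles of 20 equal classes of all unigenes with at least 50 reads, coloured points are the 8 unigenes by number, and the open triangle is the lower limit of Unigene51912. Unigene951 and Unigene20953 lie below the line, and the others above it.

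With the GC trend removed, Unigene11759 alone was upregulated, at a log2 ratio of 1.21. Unigene951 and Unigene20953 were then downregulated, at -1.01 and -1.20, with Audic-Claverie FDRs of 4.89e-06 and 2.9e-06. Among all unigenes 17.3% were upregulated and 9.89% downregulated in this setting. Unigene45555, Unigene47649, Unigene10312 and Unigene62352 kept ratios above 0, at 2.06, 1.22, 0.89 and 0.68, without passing the thresholds. Unigene51912 had a limit of 1.39 with 3 dark reads and did not pass them either. The differences of Unigene951 and Unigene20953 from the others of their groups were larger once the trend was removed. Between Unigene11759 and Unigene951 the log2 difference was 2.22, against 1.54 by total reads, and between Unigene47649 and Unigene20953 it was 2.41, against 1.80. With TMM factors 4 of the 8 were upregulated, against 20% of all unigenes, and with median-of-ratios size factors 3, against 18.0%, while 18.9% of all unigenes were then downregulated. Fisher's exact test gave 4, against 25.4%, and an absolute log2 ratio of 2 or more also 4, against 18.7%. A minimum of 10 reads, which Unigene51912 with 9 reads did not meet, gave 4, against 27.8% of the unigenes left. A minimum of 500 bp left 5 of the 8, of which 3 were upregulated, against 33.5% of all unigenes that long. With edgeR's exact test, in which a variation between pools is assumed, 2 (Unigene10312 and Unigene11759) were upregulated at a coefficient of variation of 0.2, against 14.5% of all unigenes, and 0 at 0.4, against 1.19%. Thus the direction of Unigene951 and Unigene20953 depended on the removal of the GC trend, and with the trend removed they still lay below the other members of their groups. TMM and median-of-ratios factors shift every unigene alike and say nothing about this order.

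**Figure D4:**
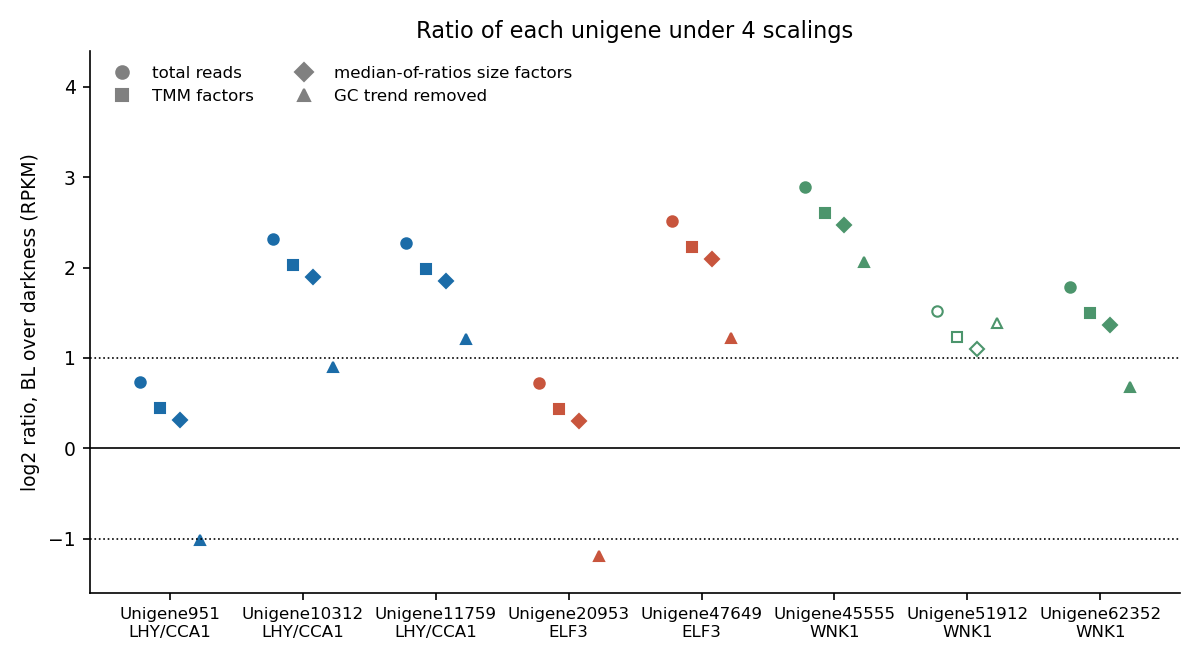
Log2 ratio of BL to darkness of each unigene by total reads (circles), TMM factors (squares), median-of-ratios size factors (diamonds) and with the GC trend removed (triangles). Open symbols are limits with 3 dark reads. Under the first 3 all unigenes lie above 0, and with the GC trend removed Unigene951 and Unigene20953 lie at -1.01 and -1.20.

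The unigene listed under CO, Unigene64736 of 317 bp, matched *Arabidopsis* CONSTANS-LIKE 16 and the pseudo-response regulator PRR7. Proteins of the 2 *Arabidopsis* families share a CCT domain. It had 19 reads in BL, or 5.25 RPKM (interval 3.16 to 8.20), against 5 reads in darkness, or 1.45 RPKM (interval 0.470 to 3.38). Its log2 ratio was 1.86 (interval 0.39 to 3.64), with an Audic-Claverie FDR of 0.0158, so it did not pass the thresholds. At 66.88% GC, unigenes of like GC content had a median log2 ratio of 1.91.

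The other 36 plant clock unigenes, of which 35 had a read, held 12053 BL reads and 7092 dark reads. Their median log2 ratio was 1.86 when unigenes without a dark read were set to their limit. Their median GC content was 57.94%, in a range of 49.1% to 70.91%. Of all unigenes tested, 25.0% were upregulated and 11.6% downregulated. Among all unigenes with a GC content of 54.98% to 66.14%, 43.8% were upregulated and 2.86% downregulated. None of the 35 other clock unigenes was downregulated and 18 were upregulated, a share nearer to 43.8% than to 25.0%. By homologue these were 13 of 16 for ZTL/FKF1/LKP2, the F-box photoreceptors that target TOC1 in *Arabidopsis*, 3 of 10 for the pseudo-response regulators APR and TOC1, 1 of 6 for the kinase subunit CK2α and 1 of 4 for CK2β. Among those with 10 or more BL reads and as many dark reads the ratios ran from -0.79 for Unigene7649 (20 BL and 33 dark reads, interval -1.67 to 0.06) to 4.47 for Unigene70482 (787 and 34 reads, interval 3.97 to 5.01), both ZTL homologues that the study also annotated as phototropin.

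Over the 2 libraries, likeness of pattern could be measured only as the difference of log2 ratios. It was taken by total reads among 21 other clock unigenes with at least 50 reads. The APR 7 homologue Unigene49146 had the same counts as the summed WNK1 unigenes, 58 BL and 9 dark reads. Its log2 ratio was therefore the same, 2.62 (interval 1.60 to 3.82). The ZTL homologue Unigene11320 (2454 and 393 reads) was next at 2.58. The study annotated Unigene11320 and Unigene14139 also as aureochromes, the blue light receptors of stramenopile algae. Closest to the summed LHY/CCA1 unigenes were the ZTL homologues Unigene21263 at 1.61 (150 and 47 reads) and Unigene14139 at 1.71 (120 and 35 reads). Closest to ELF3 were the APR 7 homologue Unigene45872 at 0.57 (31 and 20 reads) and again Unigene21263. With the GC trend removed, Unigene49146 (70.91% GC) was at 0.71 and Unigene11320 at 1.42, against 1.86 for the summed WNK1 unigenes. Unigene21263 was then at -0.26 and Unigene14139 at 0.35, against 0.36 for LHY/CCA1. Unigene45872 was at -0.53, against -0.79 for ELF3.

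**Figure D5:**
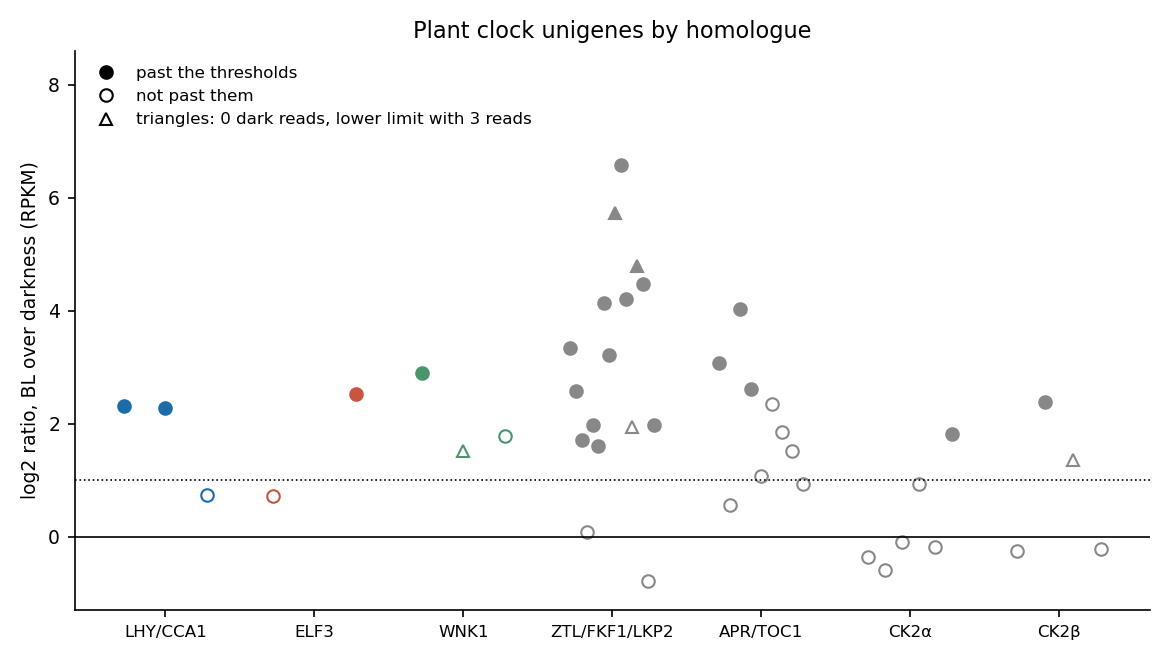
Log2 ratio of BL to darkness of the 8 unigenes (coloured) and of 35 other plant clock unigenes with a read (grey) by homologue. Filled symbols were upregulated, and triangles are lower limits with 3 dark reads. With Unigene51912 at its limit, the 8 unigenes lie between 0.72 and 2.89, within the range of the ZTL/FKF1/LKP2 unigenes.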

How the data were processed

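Polyadenylated RNA of 1 pool per treatment was sequenced, 1 library each for BL and darkness. According to the paper, the authors used SOAPdenovo for assembly of the cleaned reads and TGICL to join the unigenes of the 2 libraries, and aligned the reads back; the aligner is not given in the sources used here. The deposited counts are whole numbers of uniquely aligned reads per unigene without normalization, so reads shared between near-identical copies were left out. The deposited percent values are the covered length and the GC and unknown bases. Unigenes with a single read were covered over 90 bp in both libraries, so coverage was taken to come from the counted reads. A unigene absent from a library's list was set to 0.

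RPKM used the uniquely aligned reads of each library. The Audic-Claverie test was 2-sided with Benjamini-Hochberg adjustment over 70288 unigenes, without a length minimum because 3 of the 8 unigenes are shorter than 500 bp. Quasi-likelihood tests need replicates. Ratio intervals are Clopper-Pearson, level intervals Poisson, and ratios of ratios conditional odds ratios. Coverage was compared with unigenes within 10% in reads (or 1 read) and length. The GC trend ran through the medians of 20 classes. Named were the 8 unigenes, the CO unigene, for each group the 2 other clock unigenes of at least 50 reads nearest in log2 ratio, and the highest and lowest of those with 10 reads or more per library. Members, lists, tests and alternatives were chosen with earlier results of these data known. Calls and intervals were tested on simulated counts with counting error alone. Few unigenes were changed there, all with at least 50 reads, and variation between pools and a GC trend were left out. Calls under such conditions were therefore not tested. Python 3.11.15, scipy 1.17.1 and edgeR 4.0.16 were used. Unigene sequences were not analysed here.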

Additional observations from a re-analysis of the deposited data

How the results depend on the processing

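No paired analysis was possible because each treatment has 1 library, and no library could be left out. Of the 8 unigenes, 4 were upregulated and 0 downregulated, against 25.0% and 11.6% of all unigenes. With the GC trend removed, 1 was upregulated and 2 downregulated, against 17.3% and 9.89% of all unigenes. With edgeR's exact test 2 were upregulated at an assumed coefficient of variation of 0.2, against 14.5%, and 0 at 0.4, against 1.19%. TMM factors, median-of-ratios size factors, Fisher's exact test, minimums of 500 bp or 10 reads and a fold threshold of 2 on the log2 scale gave 3 or 4 upregulated and 0 downregulated. Of all unigenes tested in these settings, 18.0% to 33.5% were upregulated. The minimum of 500 bp left only 5 of the 8. Of the 35 other clock unigenes with a read, 18 were upregulated and 0 downregulated, against 25.0% and 11.6% of all unigenes. With the GC trend removed, 9 were upregulated and 4 downregulated, against 17.3% and 9.89%. At a coefficient of variation of 0.4, 4 were upregulated, against 1.19%. Median-of-ratios size factors gave 1 downregulated, against 18.9%. The summed log2 ratio of LHY/CCA1 was 1.36 with TMM factors, 1.23 with median-of-ratios size factors, 0.36 with the GC trend removed and 1.13 without Unigene11759. With the GC trend removed and without Unigene11759 it was -0.49. The summed log2 ratio of ELF3 was -0.79 with the GC trend removed. The ratios of Unigene951 and Unigene20953 became -1.01 and -1.20 with the GC trend removed. WNK1 rests on 9 dark reads, and ratios at this depth carry wide intervals.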
